A study of Mus musculus with 6 samples.

Results

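The genes described here encode the protein folding machinery of the endoplasmic reticulum (ER) and the sensors and degradation factors of the unfolded protein response. The 36 members were chosen by gene symbol from a list of ER chaperones, oxidoreductases, stress sensors, factors of ER-associated degradation and translocon subunits. All 36 were found among the 24930 genes of the table, and all 36 passed the filter on low values (mean of 1 unit or more), as 11837 genes did. The study profiled messenger RNA of primary crypt epithelium from mice. Of 6 libraries, 3 came from β-cateninGOF/+ crypts, called mutant below, in which a single β-catenin allele had been switched to a gain-of-function form 4 days before, and 3 from control crypts. The column names mark the mutant allele as a heterozygous exon change. The Cre driver, the inducing agent, the region of the intestine, the strain, the age and the genotype of the controls were not named in the labels.

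Proteins bound for secretion or membranes enter the ER through the Sec61 channel. In the lumen the chaperone BiP (Hspa5) and its partners bind unfolded chains, calnexin and calreticulin hold glycoproteins, and protein disulfide isomerases form and shuffle disulfide bonds. Unfolded protein in excess activates the sensors IRE1, PERK and ATF6, which raise chaperone genes, slow translation and feed misfolded chains into degradation by the proteasome. Among crypt cells this machinery is best known from Paneth cells, which secrete defensins and lysozyme, and from goblet cells, which secrete mucins. Loss of Xbp1 or of the goblet cell sensor Ern2 disturbs these cells in mice.

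Expression is given per gene in the authors' normalized units, and the absolute depth is unknown. Among the lowest values, the value multiplied by transcript length piled up at steps that differed between libraries. Levels are therefore compared between genes on a scale per length, and the steps gave a 1.61-fold range of relative reads per unit, lowest in mutant replicate 3. Nothing in the labels ties libraries to separate animals, and the p-values therefore measure the spread among these libraries, which may be technical. The epithelial genes Agr2 (1033 to 1570 units) and Vil1 (378 to 987 units) were high in every library. Ctnnb1, which encodes β-catenin, stood at 246, 248 and 273 units in control replicates 1 to 3 and at 262, 236 and 285 units in mutant replicates 1 to 3, a value that does not measure the mutant allele. Control replicate 1 had the highest summed level of 14 Paneth markers (593501 units) and mutant replicate 3 the lowest (65026 units). Mutant replicate 3 also had the lowest sum of 6 stem cell markers (145.0 units, against 609.7 to 1422 in control libraries) and the highest sums of enterocyte and immune markers. Olfm4 made up most of the stem cell sum in control libraries (472 to 1195 units, against 54.6 in mutant replicate 3). Axin2, another of the 6, was highest in mutant replicate 3, at 35.4 units. Some marker sums did not overlap between the groups. Enteroendocrine markers (210 to 275 units in control, 308 to 480 in mutant libraries) and stromal markers (5.27 to 8.86 against 20.4 to 44.7) were higher in mutants. Tuft cell markers were lower (17.1 to 45.4 against 12.7 to 16.3). The other marker sums overlapped. The part of these cell types in the differences below was not tested. In bulk RNA, fewer cells of a type and less RNA per cell cannot be told apart.

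Some members share a known control element of the ER stress response. The members were chosen as genes of ER folding and of that response, so a raised share among them is not an independent result. The ER stress response element (ERSE), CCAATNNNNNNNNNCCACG, is read by ATF6 and XBP1 together with the CCAAT factor NF-Y, and the shorter ERSE-II is ATTGGNCCACG. Both strands of the RefSeq promoters of build GRCm38.p6, 250 bases before to 50 after the start, were searched. Entries were found for 29 members, Ero1l under its newer name Ero1a. The members without an entry were Ern2, Atf6, Creb3l1, Hyou1, Manf, Derl1 and Sec61a1. An ERSE stood in 9 of 29 members (31.0%), against 37 of 27025 genes (0.137%), and an ERSE-II in 2 members, against 12 genes (0.0444%). No found sites overlapped one another. The element TGACGTGG, an XBP1 and ATF6 target, was in the window of 0 members and 0.714% of all genes. A match is a description of these letters, not evidence of binding. The whole promoters are shown for Hspa5, the classic target, at chr2:34771840-34772139 (plus strand), and for Herpud1, the member that moved most closely with Paneth markers below, at chr8:94386179-94386478 (plus strand), with the element in capitals:
Hspa5: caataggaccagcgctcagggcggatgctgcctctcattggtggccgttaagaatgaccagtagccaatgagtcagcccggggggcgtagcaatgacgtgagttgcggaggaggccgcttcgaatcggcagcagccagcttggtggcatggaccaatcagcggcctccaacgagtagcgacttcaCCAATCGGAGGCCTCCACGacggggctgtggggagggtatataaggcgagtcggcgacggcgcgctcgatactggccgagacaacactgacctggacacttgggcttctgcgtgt
Herpud1: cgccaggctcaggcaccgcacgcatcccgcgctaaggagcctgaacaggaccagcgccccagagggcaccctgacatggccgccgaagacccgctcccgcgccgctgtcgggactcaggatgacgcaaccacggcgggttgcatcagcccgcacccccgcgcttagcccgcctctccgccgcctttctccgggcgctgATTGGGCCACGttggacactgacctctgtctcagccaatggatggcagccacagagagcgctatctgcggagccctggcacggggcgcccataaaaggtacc
The other sites are shown with 10 bases on each side, again with the element in capitals and in the direction of the gene, so that a site beginning CGTGG lies on the opposite strand. Hsp90b1 held a pair of them:
Hsp90b1, upstream: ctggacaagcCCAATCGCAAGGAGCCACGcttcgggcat
Hsp90b1, downstream: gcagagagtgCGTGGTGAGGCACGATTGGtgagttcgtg
Dnajc3: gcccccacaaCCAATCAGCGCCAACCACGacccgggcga
Pdia6: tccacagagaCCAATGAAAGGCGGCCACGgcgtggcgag
Calr: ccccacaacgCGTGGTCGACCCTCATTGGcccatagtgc
Canx: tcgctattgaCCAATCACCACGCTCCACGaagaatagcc
Creld2: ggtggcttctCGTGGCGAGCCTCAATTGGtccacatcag
Syvn1: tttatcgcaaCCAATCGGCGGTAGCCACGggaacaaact
Derl3: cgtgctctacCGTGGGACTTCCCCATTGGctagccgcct
Dnajb11 (ERSE-II): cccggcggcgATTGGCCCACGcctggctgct
In Hspa5 the element runs from position -65 to -47 before the start, in Syvn1 from -44 to -26, and in Herpud1 from -52 to -42. The 11 members with an element were 5 higher and 6 lower in mutant libraries (median log2 difference of -0.029), and the 18 searched members with neither were 8 higher and 10 lower (median of -0.036).

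The first comparison asked whether mutant crypts changed the ER folding genes. They stood close to control levels. Of 36 members, 16 were higher and 20 lower in mutant libraries, by a median log2 difference of -0.032, where the median over all 11837 genes was -0.018. With libraries scaled to their totals 32 were higher and 4 lower, as the median of all genes moved to 0.30 and that of the members to 0.32. In limma, 0 members passed an adjusted p of 0.05, where 0.0169% of all genes did, and at an unadjusted p under 0.05 there were 2 higher (4.72% of all genes) and 1 lower (3.59%). Differences are taken between means of log2(value + 1), a scale that understates the change of low genes, and adjusted p-values are Benjamini-Hochberg values over all genes tested. 33 members lay within a log2 difference of 0.5 in either direction, as 84.8% of all genes did. The precision was moderate: the 95% interval of a member's difference reached a median of 0.48 to either side, and for 32 of 36 it lay within -1 and 1. These intervals are not adjusted for the number of genes. Those of Ero1l, Sec61b and Dnajc3 left out 0, yet their adjusted p was 0.589 in limma. Passing the adjusted threshold therefore took a larger change than the intervals alone imply, and smaller changes were not detectable here. In 2 members all mutant values lay above all control values (8.34% of all genes), and in 3 all lay below (8.37%), shares near the background.

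**Figure D1:**
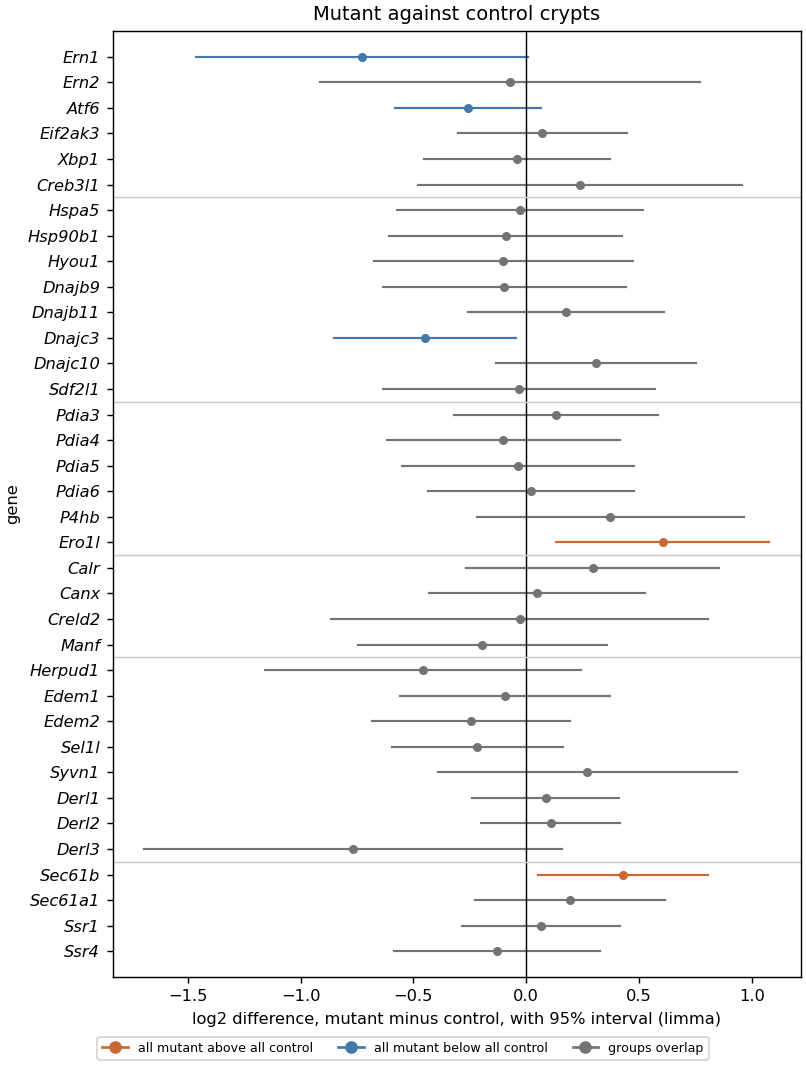
Log2 difference between mutant and control libraries of the 36 members (horizontal axis) with the 95% interval from limma, grouped by role from sensors at the top to the translocon at the bottom. Most points lie within 0.5 of 0, and coloured members (Ern1, Atf6, Dnajc3, Ero1l, Sec61b) have groups that do not overlap.

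Summed over members, the libraries held 4512, 3612 and 5041 units in control replicates 1 to 3 and 4615, 4832 and 4525 units in mutant replicates 1 to 3. The mutant sums lie inside the control range. Among the members the highest levels belonged to the disulfide isomerase P4hb (522 to 937 units over all libraries), the chaperones Calr (401 to 676), Hspa5 (342 to 564) and Hsp90b1 (341 to 523), and Pdia3 (282 to 394). These ranges overlap between neighbours in the order, so their order is not fixed. The lowest member was Derl3, at 0.780 to 5.95 units.

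**Figure D2:**
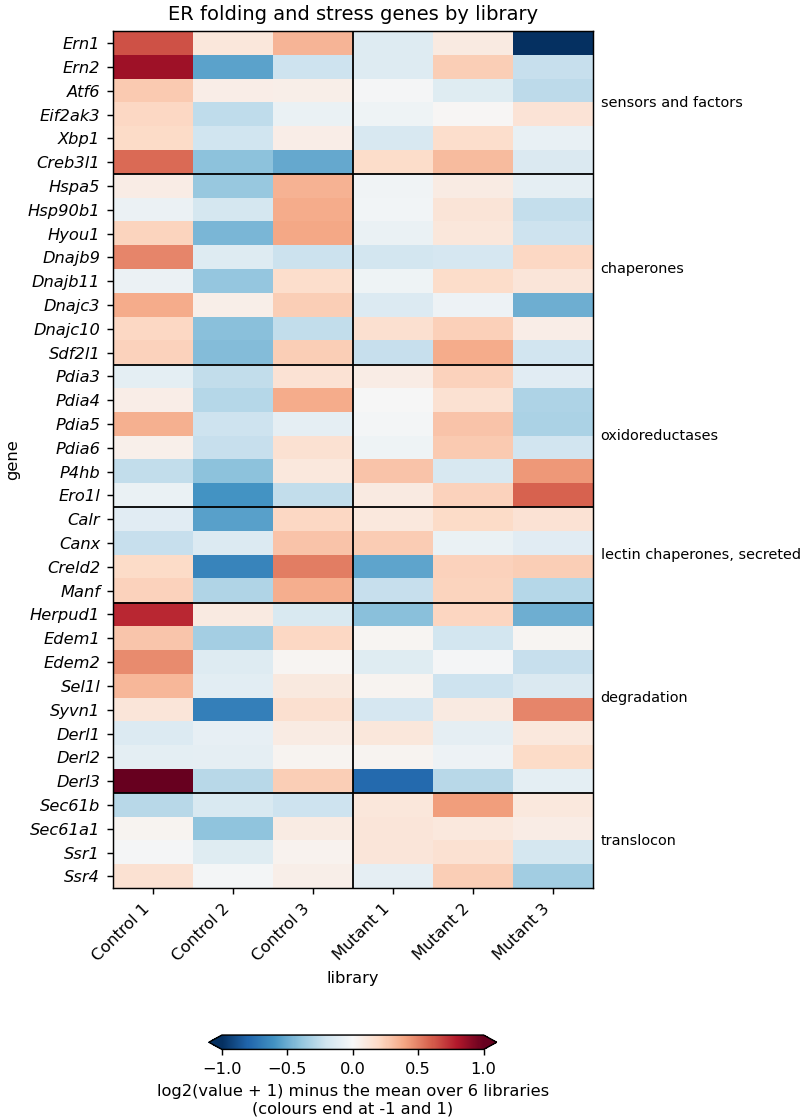
Colour gives log2(value + 1) of each member minus its mean over 6 libraries, for 3 control and 3 mutant libraries. Control replicate 2 is blue for most chaperones, oxidoreductases and lectin chaperones, while Ern1, Ern2, Herpud1 and Derl3 are reddest in control replicate 1.

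Among the stress sensors, the genes of IRE1α and ATF6 had lower values in every mutant library. Ern1, the gene of IRE1α, an RNase that splices Xbp1 mRNA, had 23.7, 16.2 and 19.1 units in control replicates 1 to 3 and 13.5, 15.9 and 6.69 units in mutant replicates 1 to 3. The groups do not overlap, but control replicate 2 and mutant replicate 2 nearly meet and mutant replicate 3 lies far below the rest. The log2 difference of Ern1 was -0.73 ± 0.31 (SE; limma, adjusted p of 0.589), and it was -0.39 without mutant replicate 3. Atf6, the gene of a sensor that is cut in the Golgi to free a transcription factor, had 15.8, 13.6 and 13.6 units in controls against 12.9, 11.9 and 10.6 in mutants. That is a small, even step with no overlap, a log2 difference of -0.26 ± 0.14 (adjusted p of 0.589 in limma), and the sign turned to 0.075 when libraries were scaled to their totals.

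The other sensors overlapped between the groups. Ern2, the gene of IRE1β, a form confined to mucosal epithelium and prominent in goblet cells, had 39.1, 14.4 and 18.3 units in controls against 19.4, 25.4 and 18.0 in mutants. Control replicate 1 stands alone above the others (log2 difference of -0.072 ± 0.35; limma, adjusted p of 0.947). Leaving it out, the difference was 0.33. Eif2ak3, the gene of PERK, a kinase that slows translation, had 13.9, 9.86 and 11.4 units in controls against 11.6, 12.03 and 13.2 in mutants. Its mutant values all lie inside the control range. Xbp1, whose spliced mRNA encodes the main activator of secretory machinery, had 122, 92.5 and 112 units in controls against 94.97, 120 and 101 in mutants. Here too the mutant values sit inside the control range (log2 difference of -0.041, with a 95% interval of -0.45 to 0.37), and values per gene do not separate spliced from unspliced Xbp1. Creb3l1, an ER-tethered transcription factor gene, had 39.1, 19.4 and 18.0 units in controls against 29.8, 32.8 and 23.6 in mutants, with control replicate 1 again highest (log2 difference of 0.24 ± 0.30, adjusted p of 0.763 in limma). Omitting that library gave 0.58 for Creb3l1, and omitting control replicate 3 gave 0.041.

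Of the 8 chaperones 2 were higher and 6 lower, 0 passed in limma, and the median log2 difference was -0.063. BiP, encoded by Hspa5, holds unfolded chains and keeps the sensors quiet. It had 469, 342 and 564 units in controls against 434, 471 and 417 in mutants. The mutant values fall between the control extremes (log2 difference of -0.029, 95% interval of -0.57 to 0.52, adjusted p of 0.966 in limma). Hsp90b1, the gene of the ER HSP90 paralogue GRP94, had 386, 357 and 523 units in controls against 397, 441 and 341 in mutants, and its groups overlap as well (log2 difference of -0.091, 95% interval of -0.61 to 0.43). Hspa5 and Hsp90b1 were singled out for their role, outside the rule for named genes.

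Dnajc3 was the chaperone gene that differed most by p. It encodes p58IPK, a BiP co-chaperone that also inhibits PERK. It had 51.7, 41.3 and 47.2 units in controls against 36.0, 38.3 and 28.1 in mutants. Every mutant value is below every control value, by a log2 difference of -0.45 ± 0.17 (adjusted p of 0.589 in limma). Dnajc10, the gene of a J-domain reductase that opens wrong disulfides, had 39.2, 25.1 and 28.4 units in controls against 38.1, 40.1 and 35.4 in mutants. Only control replicate 1 reaches the mutant range (log2 difference of 0.31 ± 0.19, adjusted p of 0.596 in limma). Dnajb11, a BiP co-chaperone gene, had 81.5, 64.7 and 96.0 units in controls against 82.5, 96.7 and 92.2 in mutants, which overlap. The other 3 chaperone genes were Hyou1, which encodes a BiP nucleotide exchange factor, and the co-factor genes Dnajb9 and Sdf2l1, with log2 differences between -0.10 and -0.034 and overlapping groups.

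Of the oxidoreductases, Ero1l was higher in every mutant library. It encodes ERO1α, the oxidase that recharges disulfide isomerases and is also known as a hypoxia-responsive gene. It had 23.8, 16.2 and 20.9 units in controls against 26.6, 29.5 and 38.0 in mutants. The groups do not overlap and mutant replicate 3 is the highest, for a log2 difference of 0.61 ± 0.20, the largest positive one among the members (adjusted p of 0.589 in limma). It ranged from 0.46 to 0.72 on leaving out single libraries. Its paralogue Ero1lb, which is outside the member list, stood the other way, at 12.8, 7.22 and 7.84 units in controls against 4.85, 5.07 and 4.57 in mutants. Those groups do not overlap either (log2 difference of -0.78 ± 0.22, adjusted p of 0.589 in limma, with an unadjusted p of 0.00866). The difference between the paralogues was not tested.

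P4hb, which encodes the disulfide isomerase PDI, also a subunit of collagen prolyl hydroxylase, had 585, 522 and 746 units in controls against 845, 623 and 937 in mutants. Mutant replicate 2 lies below control replicate 3, so the groups overlap (log2 difference of 0.37 ± 0.25, adjusted p of 0.612 in limma). Stromal markers were higher beside it: the sum of 10 stromal genes was 5.27 to 8.86 units in control and 20.4 to 44.7 units in mutant libraries, 6 of 10 passed the filter on low values and Pdgfra was at 0 in every control library. Their part in the P4hb values was not tested. Pdia3, the isomerase that works with calnexin and calreticulin, had 314, 282 and 370 units in controls against 353, 394 and 310 in mutants, which overlap. Pdia4, Pdia5 and Pdia6 had log2 differences between -0.10 and 0.020. The group as a whole had 4 of 6 members higher, 0 past the threshold and a median log2 difference of 0.076.

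The lectin chaperones and the secreted stress proteins gave 2 higher and 2 lower members. Calr, the gene of calreticulin, which binds glycoproteins and stores calcium, had 541, 401 and 676 units in controls against 629, 667 and 644 in mutants. The mutant values lie close together, below control replicate 3 (log2 difference of 0.29 ± 0.24, adjusted p of 0.644 in limma). Canx, the gene of its membrane-bound partner calnexin, had 147, 157 and 210 units in controls against 206, 165 and 159 in mutants, with full overlap. Manf, the gene of a secreted factor that stress induces and that binds BiP, had 82.1, 56.4 and 90.3 units in controls against 59.5, 81.7 and 57.1 in mutants, also overlapping (log2 difference of -0.19 ± 0.23). Creld2, another stress-induced secreted protein gene, had a log2 difference of -0.030 and a 2.29-fold range between libraries.

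Among the degradation genes 3 of 8 were higher and 5 lower, 0 passed, and the median log2 difference was -0.16. Derl3, a derlin gene of strongly secreting cells, had 5.95, 1.51 and 2.61 units in controls against 0.780, 1.51 and 1.85 in mutants. Control replicate 1 is far above the others and the rest overlap (log2 difference of -0.77 ± 0.39, adjusted p of 0.589 in limma). Without control replicate 1 it was -0.37. Plasma cells, which are also rich in Derl3, had a marker sum of 34.4 to 50.4 units in control and 37.5 to 104 units in mutant libraries over 7 genes, 5 of which passed the filter, mostly from Sdc1. Their defining gene Tnfrsf17 was at 0 in control replicate 2 and mutant replicates 1 and 2, and highest in mutant replicate 3 (0.251 units). Jchain, Mzb1 and Cd79a were lowest in control replicate 2 and highest in mutant replicate 3. They went from 0.380 to 21.8, from 0.0907 to 4.95 and from 0.0824 to 14.2 units. Sdc1 had 30.3 to 56.3 units, so the sum says little about the other markers. The part of plasma cells in the Derl3 values was not tested.

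Herpud1, the gene of a membrane scaffold of the HRD1 degradation complex, had 186, 117 and 98.8 units in controls against 82.1, 127 and 78.2 in mutants. Control replicate 1 is highest and mutant replicate 2 exceeds the other 2 controls (log2 difference of -0.46 ± 0.30, adjusted p of 0.605 in limma). The difference of Herpud1 was -0.20 without control replicate 1, and it was -0.84 within males and 0.016 within females, read from Xist alone. Sel1l, whose protein anchors that complex, had 42.3, 31.0 and 35.8 units in controls against 34.0, 28.7 and 30.1 in mutants, which overlap (log2 difference of -0.22, or -0.11 without control replicate 1). The ligase gene Syvn1 had a log2 difference of 0.27 ± 0.28, and the mannosidase-like genes Edem1 and Edem2 had -0.095 and -0.25. Derl1 and Derl2, the broadly expressed derlins, were the steadiest members, with 1.19-fold and 1.24-fold ranges over 6 libraries.

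In the translocon group, Sec61b was higher in every mutant library. It encodes the β subunit of the Sec61 channel and had 138, 151 and 145 units in controls against 181, 224 and 181 in mutants. The controls lie close together below all mutants, for a log2 difference of 0.43 ± 0.16 (adjusted p of 0.589 in limma), and leaving out each library in turn gave 0.32 to 0.48. The pore gene Sec61a1 had 161, 119 and 167 units in controls against 171, 169 and 166 in mutants, where control replicate 3 lies inside the narrow mutant range. Ssr4, of the translocon-associated TRAP complex, had 193, 171 and 180 units in controls against 163, 205 and 136 in mutants and spread more among the mutants. Ssr1, of the same complex, had a log2 difference of 0.065. Of the 4 members 3 were higher, 0 passed and the median log2 difference was 0.13.

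**Figure D3:**
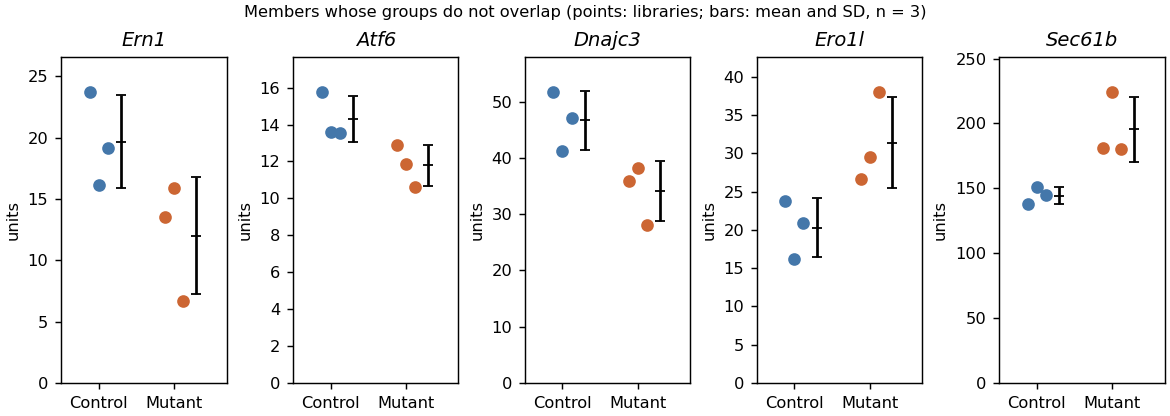
Units per library (points) with mean and SD of 3 libraries per group for the 5 members whose groups do not overlap. Ern1, Atf6 and Dnajc3 are lower and Ero1l and Sec61b higher in mutant libraries, with the closest approach in Ern1, where 16.2 units in control replicate 2 stands beside 15.9 in mutant replicate 2.

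Of these 5 members 0 passed the test over all genes. The libraries split by sex, read from Xist alone, into 2 control and 1 mutant male and 1 control and 2 mutant female libraries. Within males the log2 differences of Ern1, Atf6, Dnajc3, Ero1l and Sec61b were -0.51, -0.17, -0.35, 0.42 and 0.33, and within females -0.82, -0.25, -0.51, 0.66 and 0.47. Groups that do not overlap fix these signs, and each sex has a group of 1 library. The median over the 36 members was 0.055 within males and -0.080 within females.

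Other genes of the pathway, outside the members, were examined from 4 lists. Of 19 signalling genes of the stress response, 16 were higher and 3 lower, by a median log2 difference of 0.22, and 0 passed in limma. Atf3, a stress-induced transcription factor gene downstream of PERK and of many other signals, had 2.33, 2.12 and 3.11 units in controls against 6.33, 3.53 and 17.8 in mutants. All mutant values are above the controls, with mutant replicate 3 far above (log2 difference of 1.29 ± 0.48, adjusted p of 0.589 in limma). Omitting mutant replicate 3 gave 0.72 for Atf3. That library also had the highest immune (145.5 units), stromal (44.7 units) and enterocyte (25764 units) marker sums, and their part in this list was not tested. Ppp1r15b, the gene of a regulatory subunit of the phosphatase that restores translation, had 37.5, 38.6 and 37.8 units in controls against 52.2, 40.6 and 65.9 in mutants, without overlap (0.44 ± 0.19 on the log2 scale, adjusted p of 0.589 in limma), or 0.27 when mutant replicate 3 is omitted. Atf4, the factor whose translation rises when PERK acts, had 152, 116 and 127 units in controls against 132, 201 and 185 in mutants. Its target Ddit3, the gene of CHOP, had 20.7, 13.9 and 18.1 units in controls against 14.1, 17.2 and 27.7 in mutants. Both overlap between the groups (adjusted p of 0.590 and 0.874 in limma).

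The other folding, degradation and translocation lists had medians near 0. Of 28 tested folding genes (30 listed), 12 were higher and 16 lower, with a median log2 difference of -0.025. Besides Ero1lb, the smallest p belonged to Prkcsh, the gene of the glucosidase II β subunit that trims glycans for calnexin, at 76.7, 77.5 and 95.4 units in controls against 116, 101 and 120 in mutants. Its groups do not overlap (log2 difference of 0.43 ± 0.16, adjusted p of 0.589 in limma). Of 16 tested degradation genes (20 listed), 7 were higher and 9 lower. Nploc4, a cofactor of the VCP segregase, had 20.4, 18.3 and 16.0 units in controls against 22.0, 20.5 and 24.6 in mutants, which narrowly do not overlap, and Ubxn4, another VCP adaptor, had a log2 difference of -0.22 ± 0.13. Of 28 translocation genes 7 were higher and 21 lower, with a median of -0.056. Sec62, a channel partner, had 33.4, 31.5 and 28.1 units in controls against 23.6, 28.7 and 18.4 in mutants, and the signal peptidase subunit gene Spcs2 had a log2 difference of -0.42 ± 0.22. Omitting mutant replicate 3 gave -0.24 for Sec62 and -0.20 for Spcs2. In these 3 lists 0 genes passed in limma.

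The second comparison set the members against the secretory load of the libraries. Paneth markers varied widely and ER folding genes did not follow in proportion. The summed level of the 14 Paneth markers, 10 of them alpha-defensins that are near copies of one another, was 593501, 283849 and 164463 units in control replicates 1 to 3 and 94050, 300858 and 65026 units in mutant replicates 1 to 3. That is a 9.13-fold range, with the groups overlapping, while the summed level of the 36 members had a 1.395-fold range. For single genes the median range was 1.62-fold over the members and 1.73-fold over all tested genes. Single members ran from 1.19-fold in Derl1 to 7.63-fold in Derl3. Lyz1, the lysozyme gene of Paneth cells, had 26267, 8017 and 8468 units in controls against 7134, 12900 and 3632 in mutants. The Paneth sum was 132 times the member sum in control replicate 1 and 14.4 times in mutant replicate 3.

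A Paneth score, the mean log2(value + 1) of the markers, was then used in limma as the only term over all 6 libraries, giving the log2 change of each gene per log2 unit of score. Over all genes, 0.482% passed with a positive slope, 57 genes that include 11 of the 14 in the score, and 1.02% with a negative slope. Among the members 25 slopes were positive (53.7% of all genes) and 11 negative, with a median of 0.054 against 0.016 over all genes, and 1 member passed. That member was Herpud1, with a slope of 0.41 ± 0.062 (SE, adjusted p of 0.0301 in limma). Its 6 values run in the same order as the score, from 78.2 units in mutant replicate 3 to 186 units in control replicate 1. Pearson's r was 0.987 and Spearman's rho 1.00 (n = 6 libraries, exact two-sided permutation p of 0.00139 and 0.00278; 0.233 and 0.177 with Benjamini-Hochberg adjustment over the 11837 genes). The smallest p that 720 permutations can give is 0.00139. Without control replicate 1 and mutant replicate 3, the libraries farthest from the median score, r was 0.998.

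The call on Herpud1 was a narrow one. It held with the log2 of the summed marker level as the score (adjusted p of 0.0276 in limma). It also held with a pseudocount of 0.1 (0.0299) or 5 (0.0340) and with a filter at a mean of 5 units (0.0267). Other changes lost it. Without control replicates 1, 2 and 3 the adjusted p in limma was 0.108, 0.0501 and 0.0643, and without mutant replicates 1, 2 and 3 it was 0.109, 0.0907 and 0.0762. The slope stayed between 0.35 and 0.45 in these fits. With a score without defensins the adjusted p in limma was 0.0521, and with group as a further term it was 0.175 at a slope of 0.42. Scaling each library to its total, which itself holds up to 49.9% alpha-defensin units, lowered the slope of Herpud1 to 0.13 (adjusted p of 0.350 in limma). Under that scaling 3 of 36 member slopes were positive, against 25 without it, and 12 members and 5190 of all genes passed with a negative slope, against 0 members and 121 genes without it. Enterocyte and most stem cell markers moved beside the Paneth score. Slopes of 5 of the 6 stem cell markers were positive, and that of Axin2 was -0.0047. The sum of 10 enterocyte markers was 3807, 5037 and 10244 units in controls against 13129, 6016 and 25764 in mutants, lowest in control replicate 1 and highest in mutant replicate 3, the ends of the score. Their part in these slopes was not tested.

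**Figure D4:**
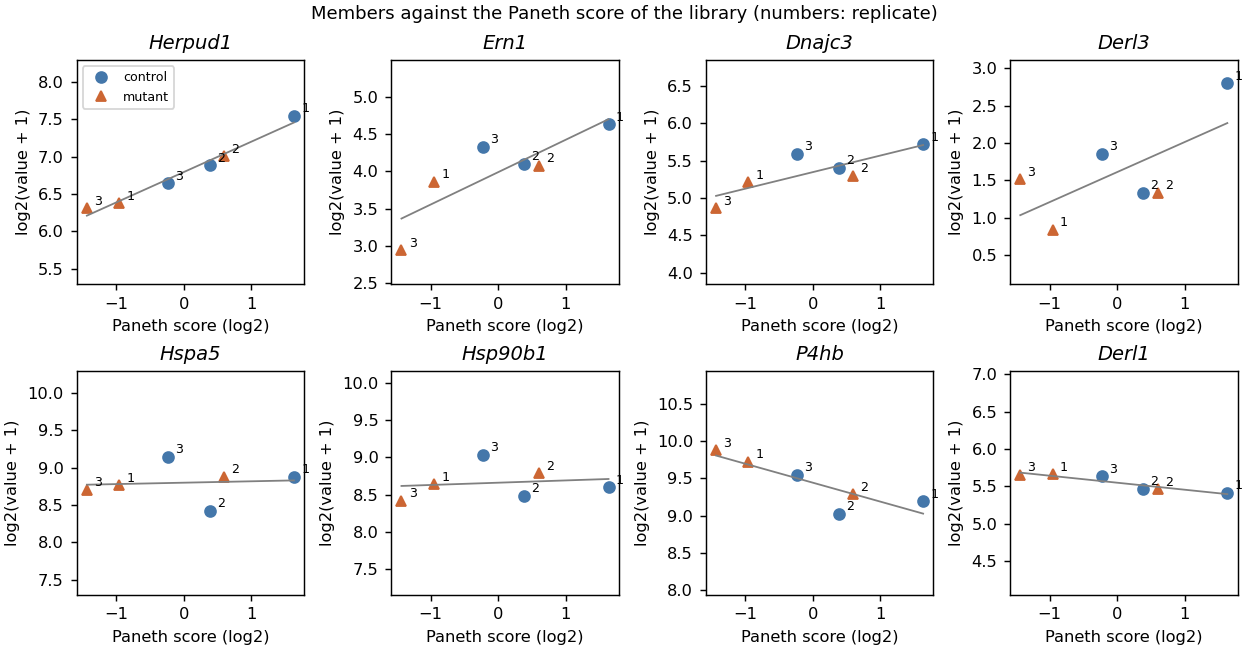
Log2(value + 1) of 8 members against the centred Paneth score of each library (circles control, triangles mutant, numbers replicates), with the fitted limma slope as a line and the same height of axis in each panel. Herpud1 lies along its line (slope 0.41), and Ern1 and Derl3 scatter about theirs. The lines of Hspa5 and Hsp90b1 are nearly flat, and those of P4hb and, less so, Derl1 fall.

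At an unadjusted p under 0.05, 5 members had positive slopes (6.77% of all genes) and 1 a negative one (11.8%). Besides Herpud1 the positive ones were Ern1 (0.43 ± 0.12), Dnajc3 (0.22 ± 0.080), Edem2 (0.19 ± 0.071) and Pdia5 (0.19 ± 0.078), with adjusted p of 0.122 to 0.260 in limma. The negative one was P4hb, at -0.25 ± 0.085 (adjusted p of 0.189 in limma). In the permutation test on Pearson's r, an unadjusted p under 0.05 was also reached by Ern1, Dnajc3, Edem2 and Ssr4 with positive r. P4hb, Derl1 and Derl2 reached it with negative r, and the adjusted p was 0.233 or more for all of these. The share of all genes that reach it in the permutation test was not counted. How many members did is therefore not read as a result. Derl1 had r of -0.928 (permutation p of 0.00417, adjusted 0.233 as for Herpud1), at a small limma slope of -0.094 ± 0.057. The central chaperones had fitted slopes near 0, with intervals that still allow a rise or a fall. Hspa5 had a slope of 0.019 with a 95% interval of -0.22 to 0.26, and Hsp90b1 had 0.030 with an interval of -0.20 to 0.26. These slopes pool the 2 groups: r with the score was 0.995 in mutant and -0.18 in control libraries for Hspa5. For Hsp90b1 it was 0.92 and -0.61, each over 3 libraries. That is too few to say that the groups differ in this, which was not tested. Xbp1 had a slope of 0.094 with an interval of -0.074 to 0.26. Each of these intervals leaves out a slope of 0.5.

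With the Paneth score as a term beside group, 0 members differed between mutant and control libraries in limma (adjusted p of at least 0.997; 0% of all genes passed). At an unadjusted p under 0.05, 3 members were higher (2.41% of all genes) and 0 lower (1.52%): Creb3l1, which went from a log2 difference of 0.24 to 0.69, Sec61b, from 0.43 to 0.51, and Dnajc10, from 0.31 to 0.51. The log2 difference of Ern1 went from -0.73 to -0.32 and that of Herpud1 from -0.46 to 0.038. Ero1l had 0.61 in both fits. This fit leaves 3 residual degrees of freedom.

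The sum of goblet markers varied less. Over 11 genes it was 15605, 11022 and 11129 units in controls against 10465, 12283 and 11918 in mutants. That is a 1.49-fold range, with control replicate 1 highest. Single markers had a median range of 2.64-fold and moved in opposite ways. Spink4 went from 10068 units in control replicate 1 to 2679 in mutant replicate 3, and Zg16 from 566 to 4148. On the goblet score used below, 8 of the 11 had positive slopes, while Zg16, Fcgbp and Tff3 had negative ones. The sum and the score therefore mix markers that differ in direction. Retnlb ranged 131-fold, from 0.644 units in control replicate 3 to 84.7 in control replicate 1. Its slope on the score, 7.04, was the steepest of the 11. Each marker has equal weight on the log2 scale, so the score leans on Retnlb, and a score without it was not run. The mucin gene Muc2 had 396, 166 and 317 units in controls against 426, 303 and 453 in mutants, with control replicate 2 lowest. In the fit on a goblet score, made as the Paneth score was, 0 members passed in limma, as 0% of all genes did. Slopes of 25 members were positive (48.0% of all genes), and 3 reached an unadjusted p under 0.05 with a positive slope (1.72%) and 0 with a negative one (2.04%). These were Ern2 (1.41 ± 0.45), Creb3l1 (1.17 ± 0.44) and Dnajb9 (0.86 ± 0.32), each with the highest value in control replicate 1. Without that library 18 of 36 slopes were positive. Agr2, a disulfide isomerase gene that goblet cells need for mucin folding, had 1442, 1033 and 1065 units in controls against 1095, 1570 and 1102 in mutants, which overlap.

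Many members shared a low point in 1 control library. In control replicate 2, 18 of 36 members had their lowest value of the 6 libraries, where 18.1% of all genes did, and 0 had their highest, where 23.9% did. Mutant replicate 3 held the lowest value of 10 members (36.4% of all genes) and control replicate 1 the highest of 14 (12.3%). The 18 were 5 of 8 chaperones (Hspa5, Hyou1, Dnajb11, Dnajc10 and Sdf2l1), 4 of 6 oxidoreductases (Pdia3, Pdia6, P4hb and Ero1l), Calr, Creld2 and Manf, the sensor group genes Ern2, Eif2ak3 and Xbp1, Edem1, Syvn1 and Sec61a1. The mean over all members lay 0.26 below their mean over the libraries on the log2 scale there, while the Paneth score of that library was 0.38 above its mean. Without control replicate 2 the median log2 difference between mutant and control libraries went from -0.032 to -0.16, and 24 of 36 members were lower. The median of all genes was then -0.0082. Leaving out the control library in which a member is lowest can only lower its difference, so a fall in these 18 was fixed beforehand. Among them, the log2 difference of Calr then was 0.097, that of Dnajc10 0.18, of Dnajb11 0.028, of Pdia3 0.041, of Sec61a1 0.044 and of Manf -0.40.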

How the data were processed

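Poly-T beads selected the RNA of the 6 libraries before Illumina sequencing, per the labels' protocols. The authors deposited a normalized signal for each gene. The submitters' processing notes name kallisto 0.46.1, DESeq2 1.40.1 and build mm9 with no role or order. The annotation, filters and normalization step were not stated there. Groups and replicate numbers came from sample titles, matched to columns by group and number, and 0 value columns lacked a sample. Of values above 0, 0% are whole, so no count model was run. A median ratio to the geometric mean between 0.990 and 1.01 showed a common scale.

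Values were taken as log2(value + 1). The 11837 genes averaging 1 unit or more were fitted by limma 3.58.1 (R 4.3.3), using a mean-variance trend, Benjamini-Hochberg adjustment over all of them and a threshold of 0.05. Terms were group, a marker score, or group and score. The fits were run on simulated data with independent genes and libraries and effects larger than any member's difference. That run does not cover shifts shared by many genes. The members and lists were chosen with earlier results of these data known. Of listed genes, 7 were not found in the table by symbol. Values in each library are given for the sensors, for members without overlap and for the 3 members of each role with the smallest p; among other pathway genes Atf4, Ddit3 and the 2 with the smallest p of each list are named. Same-numbered libraries share no label for animal, litter or day, so no block was used. Python 3.11.15 with pandas 2.3.3 searched the promoters, and matplotlib 3.10.9 drew the figures.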

Additional observations from a re-analysis of the deposited data

How the results depend on the processing

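Between mutant and control libraries, in limma, 0 members and 0 of the other pathway genes passed under every alternative run: other scalings, no filter or one at a mean of 5 units, a pseudocount of 0.1 or 5, weights per array, the replicate block, an adjusted threshold of 0.1, sex as a term and each library left out. The smallest adjusted p among members was 0.111 (Derl3, array weights). With the replicate block 0 members passed and the median log2 difference was -0.032; deviations of same-numbered libraries correlated at -0.29, 0.33 and 0.32, so the numbers were not taken as pairs. The median log2 difference ranged from -0.16 to 0.070 when each library was left out. Scaling to library totals, added after seeing the data as was the sex term, moved the median of all genes to 0.30 and that of the members to 0.32, with 32 of 36 higher. Relative to that shift the members lay 0.021 above all genes. It turned the log2 differences of Ern2 (0.27), Atf6 (0.075), Xbp1 (0.32), Manf (0.16), Sel1l (0.13), Ssr4 (0.23), Hspa5 (0.33), Hsp90b1 (0.27) and Ubxn4 (0.12) and the Paneth slopes of Dnajc3 (-0.11), Edem2 (-0.18) and Pdia5 (-0.16), and 12 members passed with a negative slope and 0 with a positive one. Array weights turned Eif2ak3 to -0.063 and Ddit3 to -0.30. Members with a positive Paneth slope past the threshold numbered 0 with a score without defensins or with library totals. They also numbered 0 with group as a term (also added later) and without each library, where the range was 0 to 0. The slope of Herpud1 in these fits was 0.44, 0.13, 0.42 and 0.35 to 0.45, in that order. With a summed-level score, a pseudocount of 0.1 or 5, or the filter at a mean of 5 units, 1 member (Herpud1) passed. With each library left out, these log2 differences changed sign: Ern2 (-0.36 to 0.33), Eif2ak3 (-0.036 to 0.19), Xbp1 (-0.15 to 0.046), Canx (-0.066 to 0.21), Ssr4 (-0.28 to 0.013), Hspa5 (-0.23 to 0.14), Hsp90b1 (-0.20 to 0.073) and Ddit3 (-0.15 to 0.31). Alternatives for single genes outside the members were also added after seeing the data. The cause of these changes was not tested. Absolute depth is unknown, so its limit on single members was not measured.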
